A study of Homo sapiens with 6 samples.

Results

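Integrins and the proteins that tie them to the actin cytoskeleton were followed as 41 genes among the 46427 genes of a raw count table from Hs578T cells, a triple-negative breast cancer line, with and without knockdown of CCN3. The genes were taken by symbol. They are all 26 integrin subunits of the table, of which 18 are alpha and 8 are beta subunits, and 15 named focal adhesion genes. RNA was sequenced from 3 libraries of cells carrying the control shRNA (shCTRL) and 3 libraries of cells carrying a CCN3 shRNA (shCCN3), and the series text describes the libraries of a group as independent biological replicates. Both groups were transduced with a retroviral vector and selected with puromycin. The methods call the selected lines clones, and only 1 CCN3 shRNA was sequenced, so that lower CCN3, other effects of this shRNA and differences between selected lines cannot be told apart. CCN3 is a secreted matrix-associated protein of the CCN family, several members of which bind integrins, and the comparison asks how the mRNAs of that receptor system differed after its knockdown.

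Integrins are pairs of 1 alpha and 1 beta subunit that hold cells to the extracellular matrix. The alpha subunit largely sets which matrix protein is bound, and the beta tail recruits talin and kindlin, which switch the receptor on. Vinculin, the ILK-PINCH-parvin complex, paxillin, zyxin and tensin then connect the receptor to actin, and focal adhesion kinase signals from the same site. In breast carcinoma cells these genes are known for their part in spreading, migration and matrix sensing.

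The libraries held between 56159110 and 68393177 counts. Levels are given as CPM, the reads of a gene relative to all reads counted in its library after TMM scaling, on the usual scale of counts per 1000000 reads. In this unit 3 counts correspond to 0.0435 to 0.0540 CPM, which covers counting error only. CCN3 itself had a mean of 101 ± 2.43 CPM under the control shRNA and of 47.0 ± 0.469 CPM under the CCN3 shRNA (SD, n = 3 each, log2 fold change -1.10, standard error 0.0554, adjusted p = 1.34e-06). The exact permutation test gave p = 0.1 (two-sided), the smallest value that 3 libraries against 3 allow. Of 8 markers of a mesenchymal-like triple-negative line, 7 were above 10 CPM in every library, and the summed level of the 8 was 12586 to 12788 CPM in shCTRL and 10992 to 11687 CPM in shCCN3 libraries. VIM made up most of this sum, with means of 7775 CPM in shCTRL and 7062 CPM in shCCN3 libraries. EGFR, CAV1 and CD44 were lower in shCCN3 cells at an adjusted p under 0.05, with log2 fold changes of -0.85, -0.65 and -0.25. The remaining markers of the 8 did not pass that threshold. ESR1, EPCAM, CDH1 and KRT19 were below 1 CPM in every library, whereas ERBB2, KRT18 and KRT8, which had been listed as low or absent, were at 77.9, 163 and 19.99 CPM in shCTRL and at 78.2, 231 and 13.9 CPM in shCCN3 cells. PGR, FOXA1 and GATA3 of the same list were at 2.86, 3.01 and 1.16 CPM in shCTRL cells. In shCCN3 cells they were at 3.80, 3.47 and 0.729 CPM. Replicate 2 of shCCN3 stood apart from its group. It was the lowest shCCN3 library for 25 of the 32 members tested, with a median deviation from the group mean of -0.13 on the log2 scale, against 0.06 and 0.08 for replicates 1 and 3.

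Of the 41 genes, 32 passed the filter on low counts, and 19 of these changed at an adjusted p under 0.05 in edgeR's quasi-likelihood test. Among the called genes 8 rose and 11 fell. The 19 are 59.4% of the members tested, where 33.4% of all 17419 genes tested were called (16.2% higher and 17.3% lower). Every member tested had a mean of at least 1 CPM, and among the 13633 genes with such a mean 37.5% were called. The groups did not overlap for 23 of the 32 members, or 71.9%. This held for 46.3% of all genes tested and for 50.1% of those with a mean of at least 1 CPM. A change of at least 2-fold with a passing test was found for 5 members, all of them lower integrin subunits, where 8.1% of all genes tested met that rule. Without replicate 2 of shCCN3 this count was 3, as ITGA8 and ITGA10 came under 2-fold at log2 fold changes of -0.93 and -0.86. The median log2 fold change of the members was -0.08 and that of all genes tested 0.01. The sizes were moderate. The genes that rose did so by 1.18-fold to 1.81-fold, and those that fell did so by 1.22-fold to 3.46-fold. In bulk RNA, fewer cells that express a gene and less of its mRNA per cell cannot be told apart.

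The calls were counted for receptors and for their partners inside the cell. Of the 17 integrin subunits tested, 2 rose, 8 fell and 7 were not called, with a median log2 fold change of -0.29. Of the 15 focal adhesion genes, 6 rose, 3 fell and 6 were not called, with a median of 0.15. These counts describe the genes listed, and the difference between the 2 kinds was not tested.

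**Figure D1:**
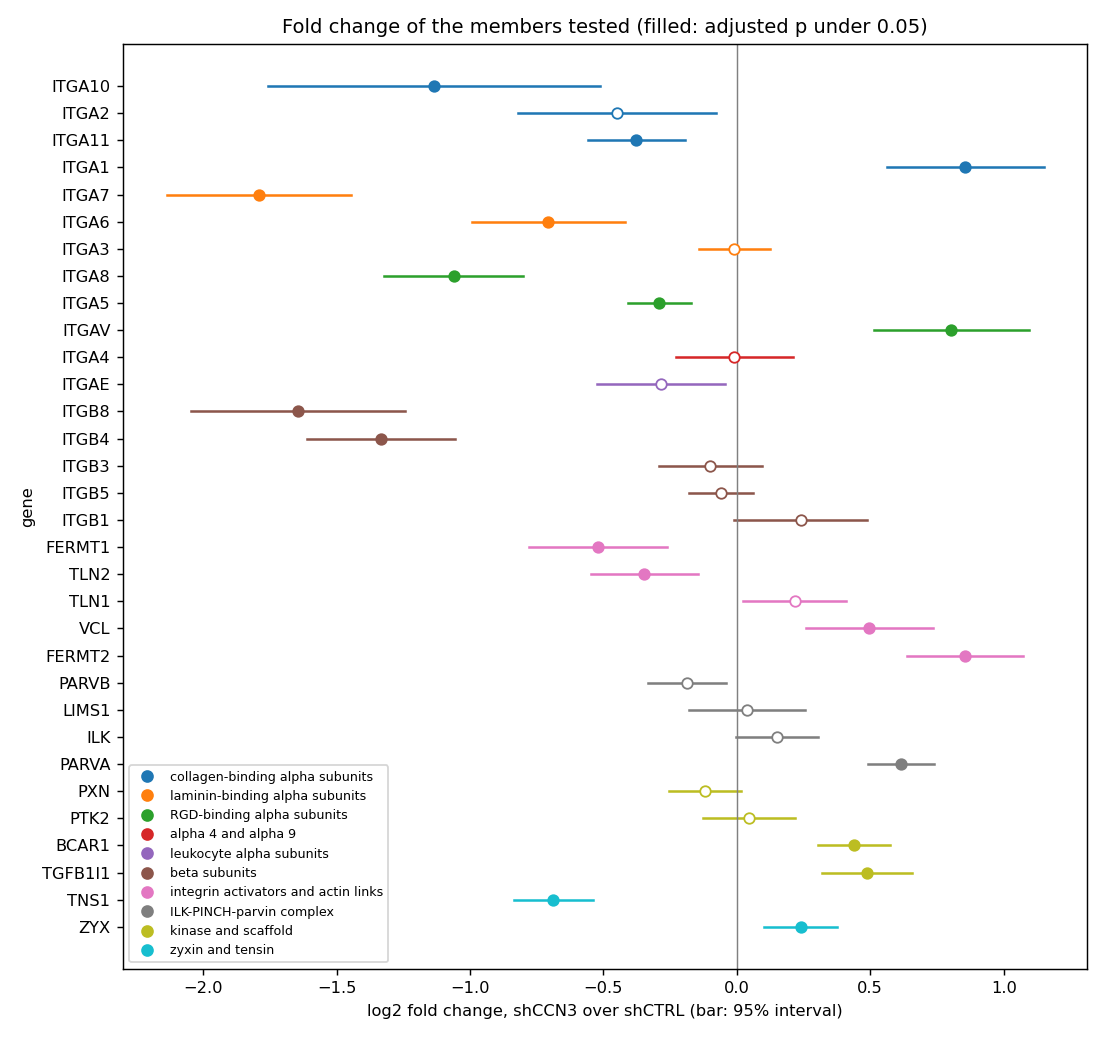
Log2 fold change (shCCN3 over shCTRL, x axis) of the 32 members tested, 1 gene per line and coloured by role, with 95% intervals from edgeR's quasi-likelihood fit. Filled points have an adjusted p under 0.05. ITGA7, ITGB8 and ITGB4 lie farthest to the left, and FERMT2, ITGA1 and ITGAV farthest to the right.

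Among the collagen-binding alpha subunits, 1 rose, 2 fell and 1 was not called. ITGA1 (Gene ID 3672, chr5:52787896-52959210, plus strand), a receptor subunit with a preference for basement membrane collagen, was 5.46, 4.85 and 4.02 CPM in shCTRL replicates 1 to 3 and 9.09, 7.81 and 9.02 CPM in shCCN3 replicates 1 to 3. Every shCCN3 library lay above every shCTRL library. This was a 1.81-fold higher ITGA1 level, with means of 4.78 ± 0.720 CPM and 8.64 ± 0.722 CPM (SD, n = 3 each, log2 fold change 0.86, standard error 0.130, adjusted p = 0.000930). On the same strand, 3.08% of the ITGA1 exon bases are shared with AC022133.1 and 2.56% with PELO. The part of these overlaps in its count was not tested. ITGA10 (Gene ID 8515, chr1:145891208-145910189, minus strand), known mainly from cartilage, was 1.82, 2.21 and 2.07 CPM in shCTRL replicates 1 to 3 and 1.03, 0.522 and 1.20 CPM in shCCN3 replicates 1 to 3. The groups did not overlap, but the shCCN3 values spread widely, with replicate 2 lowest. From 2.03 ± 0.199 CPM to 0.918 ± 0.354 CPM (SD, n = 3 each), ITGA10 was 2.2-fold lower (log2 fold change -1.13, standard error 0.275, adjusted p = 0.0114). ITGA11, the fibroblast receptor for fibrillar collagen, was the most abundant of these transcripts per exon length and fell from 378 ± 13.0 to 291 ± 30.7 CPM (SD, n = 3 each, log2 fold change -0.38, adjusted p = 0.00589). ITGA2, which binds the same collagens on epithelial cells and platelets, did not pass, with a log2 fold change of -0.45 (95% interval -0.82 to -0.08, adjusted p = 0.0633).

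Of the 3 laminin-binding subunits 2 fell and none rose. ITGA7 (Gene ID 3679, chr12:55684568-55716043, minus strand), the laminin receptor of muscle, gave the largest fold change of all members. It was 7.26, 8.74 and 9.52 CPM in shCTRL replicates 1 to 3 and 2.09, 2.86 and 2.44 CPM in shCCN3 replicates 1 to 3, with no overlap. ITGA7 means of 8.505 ± 1.15 CPM and 2.46 ± 0.387 CPM gave a 3.46-fold lower level (SD, n = 3 each, log2 fold change -1.79, standard error 0.152, adjusted p = 2.81e-05). ITGA6 (Gene ID 3655, chr2:172427354-172506282, plus strand), which pairs with ITGB1 or ITGB4 and is widely used as a marker of basal and progenitor mammary cells, was 107, 96.8 and 85.4 CPM in shCTRL replicates 1 to 3 and 64.01, 47.5 and 65.7 CPM in shCCN3 replicates 1 to 3. All shCCN3 libraries were below all shCTRL libraries. This was a 1.63-fold lower ITGA6 level, with means of 96.4 ± 10.9 CPM and 59.1 ± 10.0 CPM (SD, n = 3 each, log2 fold change -0.71, standard error 0.127, adjusted p = 0.00241). ITGA3, the most abundant alpha transcript per exon length, was 1276 ± 34.2 CPM in shCTRL and 1268 ± 72.6 CPM in shCCN3 libraries (SD, n = 3 each). Its log2 fold change of -0.01 had a 95% interval of -0.14 to 0.12.

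All 3 subunits tested of the group that recognises the RGD sequence of fibronectin and vitronectin were called, and they moved in opposite directions. ITGAV (Gene ID 3685, chr2:186590065-186680901, plus strand), the partner of several beta subunits and a receptor for vitronectin and latent TGF-beta, was 37.8, 34.4 and 28.8 CPM in shCTRL replicates 1 to 3 and 60.02, 49.1 and 67.3 CPM in shCCN3 replicates 1 to 3. The lowest shCCN3 library was above the highest shCTRL library. From 33.7 ± 4.55 CPM to 58.8 ± 9.15 CPM (SD, n = 3 each), ITGAV was 1.75-fold higher (log2 fold change 0.80, standard error 0.129, adjusted p = 0.00125). ITGA5, the alpha subunit of the classical fibronectin receptor, was 560, 570 and 566 CPM in shCTRL replicates 1 to 3 and 475, 446 and 466 CPM in shCCN3 replicates 1 to 3. The groups did not overlap, and the SD within each was small beside the difference. ITGA5 means of 565 ± 4.96 CPM and 462 ± 14.9 CPM gave a 1.22-fold lower level (SD, n = 3 each, log2 fold change -0.29, standard error 0.0529, adjusted p = 0.00258). ITGA8 (Gene ID 8516, chr10:15513949-15720125, minus strand), a receptor for nephronectin, was 51.9, 52.1 and 46.0 CPM in shCTRL replicates 1 to 3 and 26.7, 19.5 and 25.6 CPM in shCCN3 replicates 1 to 3, again without overlap. This was a 2.09-fold lower ITGA8 level, with means of 49.99 ± 3.47 CPM and 23.9 ± 3.86 CPM (SD, n = 3 each, log2 fold change -1.06, standard error 0.115, adjusted p = 0.000125). Per unit of exon length, ITGAV stood at 0.0550 ± 0.00771 of ITGA5 in shCTRL and at 0.117 ± 0.0159 in shCCN3 cells (SD, n = 3 each).

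ITGA4, a fibronectin and VCAM1 receptor subunit, was 55.8 ± 4.50 CPM in shCTRL and 55.4 ± 6.62 CPM in shCCN3 libraries (SD, n = 3 each, 95% interval of the log2 fold change -0.23 to 0.21). ITGAE, which pairs with ITGB7 on lymphocytes, was 20.9 ± 2.14 and 17.2 ± 1.99 CPM (SD, n = 3 each). Its log2 fold change was -0.28 with an adjusted p of 0.0694. The other leukocyte subunits and the platelet subunit were close to undetected. ITGAM and ITGAD had 0 counts in all 6 libraries, and ITGAL, ITGAX, ITGB2 and ITGB7 had 4, 10, 15 and 20 counts over all libraries together. ITGA2B, the platelet subunit, had 34 counts. ITGA9 had 18 counts, all in replicate 1 of shCTRL, and ITGB6, an epithelial partner of ITGAV, had 2. None of these 9 genes was tested. Of 8 leukocyte markers, 4 were at 0 in every library and 7 were below 1 CPM in every library, although their sum was 0.669 to 1.27 CPM in shCTRL and 2.39 to 3.02 CPM in shCCN3 libraries, through CSF1R at 0.405 and 2.04 CPM. All 5 platelet markers were at 0.

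Of the 5 beta subunits tested, ITGB4 and ITGB8, the lowest of them per exon length, fell by more than 2-fold, and the other 3 were not called. ITGB4 (Gene ID 3691, chr17:75721328-75757818, plus strand), which pairs with ITGA6 and anchors hemidesmosomes to laminin, was 6.74, 7.72 and 7.21 CPM in shCTRL replicates 1 to 3 and 2.71, 2.64 and 3.24 CPM in shCCN3 replicates 1 to 3. No library overlapped with the other group. From 7.22 ± 0.491 CPM to 2.86 ± 0.323 CPM (SD, n = 3 each), ITGB4 was 2.52-fold lower (log2 fold change -1.33, standard error 0.123, adjusted p = 4.47e-05). ITGB8 (Gene ID 3696, chr7:20330702-20415754, plus strand), which pairs with ITGAV and is known for activating latent TGF-beta, was 6.84, 5.51 and 4.99 CPM in shCTRL replicates 1 to 3 and 1.68, 1.60 and 2.25 CPM in shCCN3 replicates 1 to 3, also without overlap. ITGB8 means of 5.78 ± 0.954 CPM and 1.84 ± 0.354 CPM gave a 3.13-fold lower level (SD, n = 3 each, log2 fold change -1.64, standard error 0.178, adjusted p = 0.000119). The ITGB8 gene lies on chromosome 7, whose 821 tested genes lay at a median of -0.43 on the log2 scale, and ITGB8 less that median was at -1.22. The part of the chromosome-wide shift in the change of ITGB8 was not tested.

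ITGB1, the partner of most alpha subunits, was 1033, 976 and 845 CPM in shCTRL replicates 1 to 3 and 1222, 939 and 1209 CPM in shCCN3 replicates 1 to 3. The groups overlapped, as replicate 2 of shCCN3 fell among the shCTRL libraries. The ITGB1 means were 951 ± 96.7 CPM and 1123 ± 160 CPM (SD, n = 3 each, log2 fold change 0.24, standard error 0.110, adjusted p = 0.130), and the exact permutation test gave p = 0.3. Without replicate 2 of shCCN3 it passed, at 0.36 on the log2 scale and an adjusted p of 0.00347. ITGB3, which with ITGAV forms the vitronectin receptor, was 36.2, 35.5 and 32.01 CPM in shCTRL replicates 1 to 3 and 33.9, 28.9 and 34.1 CPM in shCCN3 replicates 1 to 3, with overlap. The ITGB3 means were 34.6 ± 2.24 CPM and 32.3 ± 2.91 CPM (SD, n = 3 each, log2 fold change -0.10, standard error 0.0854, adjusted p = 0.419). Of its exon bases 51.6% are shared with AC068234.1 on the same strand, so that its count is uncertain. ITGB5, another partner of ITGAV, was 434, 450 and 459 CPM in shCTRL replicates 1 to 3 and 423, 431 and 436 CPM in shCCN3 replicates 1 to 3. The groups overlapped, and the 95% interval of the log2 fold change was -0.18 to 0.06 around -0.06 (adjusted p = 0.444).

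**Figure D2:**
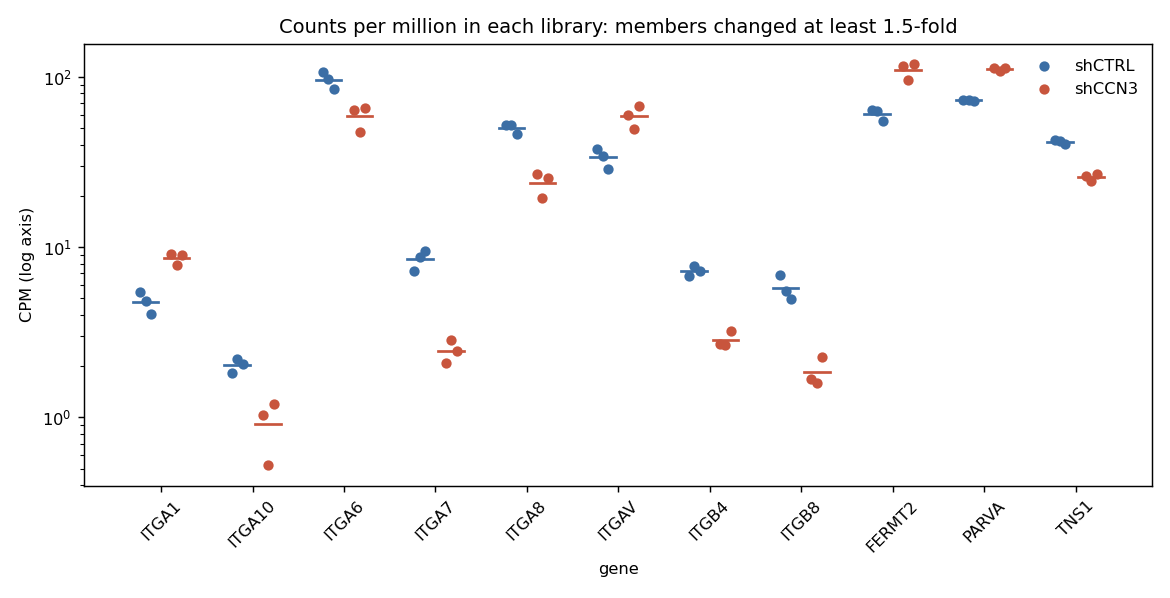
CPM in each library (y axis, log scale) for the members with an adjusted p under 0.05 and a change of at least 1.5-fold, as 1 point per library by group, with a line at each group mean. The shCCN3 points of ITGA1, ITGAV, FERMT2 and PARVA lie above all their shCTRL points, and those of the other 7 genes lie below.

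To compare levels between genes, CPM was divided by the length of all annotated exons of the gene in kilobases. This total includes untranslated and noncoding exons, so it lowers genes with long ends such as ITGA1 and ITGB8. In shCTRL cells ITGB1 led at 158 ± 16.1 CPM per kb, followed by ITGA3 at 130 ± 3.48, ITGA5 at 74.6 ± 0.655, ITGB5 at 69.4 ± 2.03 and ITGA11 at 34.8 ± 1.20 CPM per kb (SD, n = 3 each). In shCCN3 cells ITGB1 and ITGA3 were at 187 ± 26.6 and 129 ± 7.41 CPM per kb, and ITGA5 at 61.0 ± 1.97 stood below ITGB5 at 66.7 ± 1.01 CPM per kb. ITGB1 made up 66.7% of the summed beta transcripts per length in shCTRL and 71.3% in shCCN3 cells, and ITGA3 made up 45.1% and 50.7% of the alpha transcripts. The sum over the alpha subunits was 289 ± 5.38 and 256 ± 17.5 CPM per kb, and that over the beta subunits 237 ± 14.7 and 261 ± 27.1 CPM per kb (SD, n = 3 each), and the libraries of the groups overlapped for the beta sum but not for the alpha sum. Of the integrins changed by at least 2-fold, ITGA8 stood in the middle of this order and the others toward its low end. In shCTRL cells ITGA7, ITGB4, ITGB8 and ITGA10 had 1.33, 1.07, 0.381 and 0.322 CPM per kb, and ITGA8 had 6.64.

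**Figure D3:**
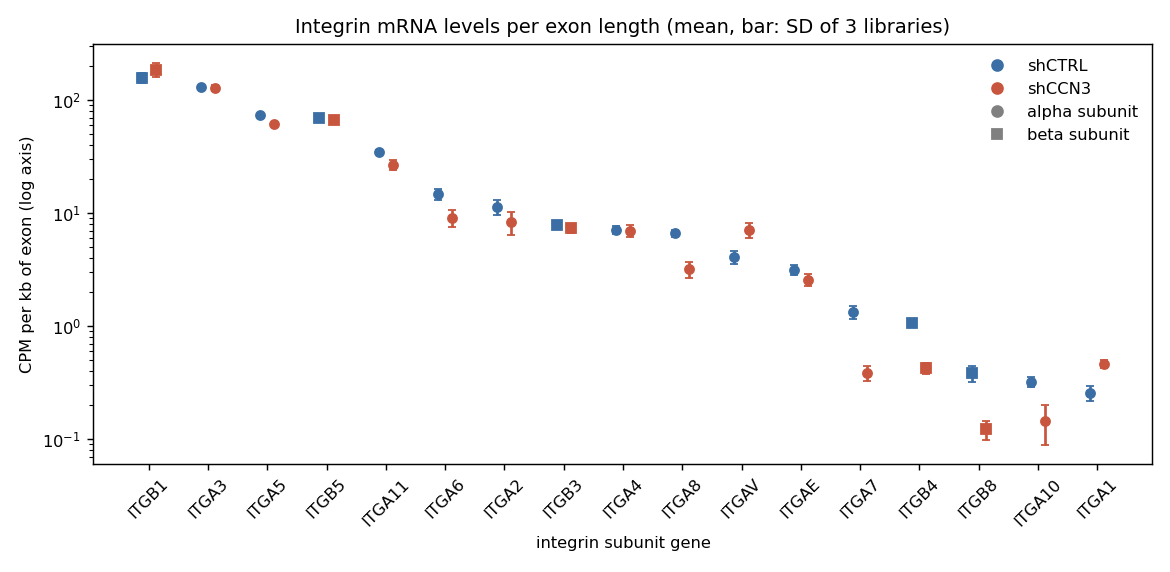
Level of each integrin subunit tested in CPM per kilobase of exon (log axis), as the group means with SD (n = 3 libraries each), circles for alpha and squares for beta subunits. ITGB1 and ITGA3 are the highest in both groups, and the separated pairs toward the low end belong to ITGA7, ITGB4, ITGB8, ITGA10 and ITGA1.

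Among the activators and actin links, 2 rose, 2 fell and 1 was not called. FERMT2 (Gene ID 10979, chr14:52857268-52952435, minus strand), kindlin-2, the broadly expressed kindlin that binds beta tails together with talin, was 64.3, 63.1 and 54.8 CPM in shCTRL replicates 1 to 3 and 115, 95.5 and 119 CPM in shCCN3 replicates 1 to 3. The groups did not overlap. FERMT2 means of 60.7 ± 5.14 CPM and 110 ± 12.6 CPM gave a 1.81-fold higher level (SD, n = 3 each, log2 fold change 0.86, standard error 0.0966, adjusted p = 0.000155). FERMT1, the epithelial kindlin, changed the other way, from 18.2 ± 1.32 to 12.6 ± 1.85 CPM (SD, n = 3 each, log2 fold change -0.52, adjusted p = 0.0071). Per length, FERMT2 was 2.11 ± 0.0261 times FERMT1 in shCTRL and 5.50 ± 0.291 times in shCCN3 cells (SD, n = 3 each). The talins link beta tails directly to actin. TLN2, the less abundant one per exon length, fell with a log2 fold change of -0.35 (adjusted p = 0.0151), but the call was lost without replicate 1 or replicate 2 of shCTRL (largest adjusted p = 0.0758). TLN1, at 412 ± 13.7 and 478 ± 57.0 CPM (SD, n = 3 each), did not pass (log2 fold change 0.22, adjusted p = 0.083). Without replicate 2 of shCCN3 it passed, at 0.31 on the log2 scale and an adjusted p of 0.000812. VCL, vinculin, which reinforces the talin-actin bond under load, rose from 402 ± 27.7 to 567 ± 83.6 CPM (SD, n = 3 each, log2 fold change 0.50, adjusted p = 0.00574). Of its exon bases 11.1% overlap AP3M1 on the opposite strand.

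In the ILK-PINCH-parvin complex, a scaffold between beta tails and actin, PARVA was the member that passed the test, and ILK, PARVB and LIMS1 did not. PARVA (Gene ID 55742, chr11:12377185-12535356, plus strand), alpha-parvin, was 73.3, 73.5 and 71.8 CPM in shCTRL replicates 1 to 3 and 113, 109 and 113 CPM in shCCN3 replicates 1 to 3, the tightest pair of groups among the members that changed by at least 1.5-fold. This was a 1.53-fold higher PARVA level, with means of 72.9 ± 0.954 CPM and 112 ± 2.43 CPM (SD, n = 3 each, log2 fold change 0.61, standard error 0.0541, adjusted p = 3.41e-05). PARVB, beta-parvin, lay just outside the threshold in the other direction, with a log2 fold change of -0.19 (95% interval -0.33 to -0.04, adjusted p = 0.051). The ratio of PARVA to PARVB per length was 0.578 ± 0.0391 in shCTRL and 1.01 ± 0.0526 in shCCN3 cells (SD, n = 3 each). ILK itself did not pass, at 0.15 on the log2 scale (adjusted p = 0.128), and 68.1% of its exon bases overlap TAF10 on the opposite strand, so that its count is uncertain where counting ignored the strand. LIMS1, which encodes PINCH1 and has near-identical copies in the genome, had a log2 fold change of 0.04 (95% interval -0.18 to 0.26).

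Of the kinase and its scaffolds, 2 rose. BCAR1, the p130Cas adaptor that is phosphorylated when adhesions are stretched, was 125 ± 6.69 CPM in shCTRL and 169 ± 3.49 CPM in shCCN3 libraries (SD, n = 3 each, log2 fold change 0.44, adjusted p = 0.00051). Of its exon bases 8.59% are shared with AC009078.3 on the same strand. TGFB1I1, the paxillin relative Hic-5, rose from 59.2 ± 3.92 to 83.0 ± 5.59 CPM (SD, n = 3 each, log2 fold change 0.49, adjusted p = 0.000933). PTK2, focal adhesion kinase, was 139 ± 10.0 and 144 ± 10.3 CPM (SD, n = 3 each), with a 95% interval of the log2 fold change from -0.13 to 0.22. PXN, paxillin, gave -0.12 (95% interval -0.25 to 0.01, adjusted p = 0.158), and 12.3% of its exon bases overlap an antisense gene.

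TNS1 (Gene ID 7145, chr2:217799588-218033982, minus strand), tensin 1, which caps actin and binds beta tails at fibrillar adhesions, was 42.4, 41.9 and 40.3 CPM in shCTRL replicates 1 to 3 and 26.1, 24.5 and 26.8 CPM in shCCN3 replicates 1 to 3. The 2 groups were far apart beside the spread within each. From 41.5 ± 1.08 CPM to 25.8 ± 1.18 CPM (SD, n = 3 each), TNS1 was 1.61-fold lower (log2 fold change -0.69, standard error 0.0656, adjusted p = 5.65e-05). ZYX, zyxin, which gathers at adhesions under tension, was 282 ± 9.86 and 333 ± 16.5 CPM (SD, n = 3 each, log2 fold change 0.24, adjusted p = 0.0141). It lies on chromosome 7, and its value less that chromosome's median was 0.67. The call of ZYX was lost without replicate 1 of shCCN3 and without replicate 1 or replicate 2 of shCTRL, with adjusted p values up to 0.067.

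Further components of adhesions were read from a list of 58 genes, of which 52 were tested. Of these, 14 rose, 9 fell and 29 were not called, with a median log2 fold change of 0.13. Thus 44.2% were called, beside 33.4% of all genes tested and 37.5% of those with a mean of at least 1 CPM. Those that rose include NEDD9, which passed the filter on low counts only through its shCCN3 libraries. It had 0, 0 and 15 counts in shCTRL replicates 1 to 3, so it could only be counted as higher or not called. With at least 10 counts required in every library, 23 genes of this list were called. Without replicate 2 of shCCN3 the number called was 34 in place of 23. LIMS2, which encodes PINCH2, rose from 7.03 ± 0.704 to 25.8 ± 1.22 CPM (SD, n = 3 each, log2 fold change 1.88, adjusted p = 1.28e-06), the largest rise on this list among genes with a mean of at least 1 CPM. PDLIM7 and PDLIM5, which bind actin filaments through alpha-actinin or tropomyosin, rose by 0.91 and 0.74 on the log2 scale. FLNA, a filamin, which crosslinks actin and competes with talin for beta tails, rose by 0.59. FLNC, a filamin of muscle, fell from 439 ± 9.77 to 226 ± 19.8 CPM (SD, n = 3 each, log2 fold change -0.96). PTK2B, the kinase related to PTK2, stood at a log2 fold change of -1.27, and KANK1, which links talin to microtubule capture, of -0.83. CAV1, the caveola protein, and TRIP6, a zyxin relative, had -0.65 and -0.44. FLNC, CAV1 and TRIP6 all lie on chromosome 7 with its median of -0.43, and their values less that median were -0.53, -0.22 and -0.01.

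Matrix ligands and counter-receptors of integrins were read from a list as well. Of 29 listed genes 25 were tested, 13 rose, 7 fell and 5 were not called. Thus 80% were called, beside 33.4% of all genes tested and 37.5% of those with a mean of at least 1 CPM. Of the called genes 11 changed by at least 2-fold, a rule that 8.1% of all genes tested met. These include VCAM1 and COL1A2, which passed the filter on low counts only through their shCCN3 libraries. In the shCTRL libraries VCAM1 had 0 counts and COL1A2 had 8 to 11. They could therefore only be counted as higher or not called. With at least 10 counts required in every library, 18 genes of the list were called. The matrix gene TNC, tenascin-C, fell from 50.4 ± 2.90 to 4.34 ± 0.416 CPM (SD, n = 3 each, log2 fold change -3.54, adjusted p = 4.22e-08). Laminin alpha chains LAMA4, LAMA3 and LAMA5 fell with log2 fold changes of -1.79, -1.54 and -0.67, and the TGF-beta binding protein LTBP1 with -0.79. Of the beta chains, named after their values were seen, LAMB1 and LAMB3 fell with -0.56 and -0.49. LAMB1 lies on chromosome 7, and its value less the median of that chromosome was -0.14. All 4 collagen genes of the list rose, but COL1A2 was low, at 0.136 CPM in shCTRL and 0.749 CPM in shCCN3 libraries. COL1A1 went from 36.1 ± 0.920 to 97.3 ± 0.902 CPM (SD, n = 3 each, log2 fold change 1.43), and COL4A1 had 1.01. The other CCN genes of the list, CCN2 and CCN1, had 3.19 and 1.74. ICAM1, a counter-receptor of leukocyte integrins that had 15 counts or fewer here, rose from 13.9 ± 0.127 to 49.8 ± 0.675 CPM (SD, n = 3 each, log2 fold change 1.84).

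Promoters were searched for the GGAATG core that TEAD factors bind and for the CArG box that serum response factor binds, since genes of adhesion and actin are known targets of both. RefSeq promoters on GRCh38.p14, from 250 bases before to 50 after the start, were matched for 29 of the 41 members, with 49 promoters in all. GGAATG stood on either strand in 7 of the 49 promoters, or 14.3%, where 14% of all 35116 promoters in the table held it. It was in 1 of 14 promoters of members that rose, 4 of 13 of those that fell and 2 of 18 of those not called. The CArG box was in 2 promoters of members, or 4.08%, where 1.29% of all promoters held it, and those were TGFB1I1 and the untested ITGB6. A match is only a run of letters, and no binding was measured. The windows of called members that held a match are given here in the 5′ to 3′ direction of the gene, with the match in capitals. CATTCC is GGAATG read on the other strand.
TGFB1I1 (CArG box, chr16:31473127-31473190, plus strand): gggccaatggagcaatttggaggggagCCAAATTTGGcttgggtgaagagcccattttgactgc
VCL (GGAATG, chr10:73997918-73997977, plus strand): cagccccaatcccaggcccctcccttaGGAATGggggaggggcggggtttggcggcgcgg
ITGA5 (GGAATG, chr12:54419316-54419375, minus strand): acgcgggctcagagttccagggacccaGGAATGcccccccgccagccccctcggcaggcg
ITGA10 (GGAATG, chr1:145910109-145910168, minus strand): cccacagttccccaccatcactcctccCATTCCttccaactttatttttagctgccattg
TNS1 (GGAATG, chr2:217944255-217944314, minus strand): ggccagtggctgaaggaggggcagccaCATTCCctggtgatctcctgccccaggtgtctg
TNS1 (GGAATG, chr2:217920302-217920361, minus strand): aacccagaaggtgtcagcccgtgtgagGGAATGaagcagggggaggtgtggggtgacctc
The windows of TGFB1I1 and VCL belong to genes that rose, and those of ITGA5, ITGA10 and TNS1 to genes that fell. GGAATG was thus found beside both directions.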

How the data were processed

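RNA-seq of 6 Hs578T libraries, 3 per group, was analysed from raw read counts per gene, which the authors deposited without normalization for 46427 genes by NCBI Gene ID and symbol. The submitters' processing notes name GRCh38, bcl2fastq 2.20.0, Trimmomatic, HISAT2 2.1.0, StringTie 2.1.3d and DESeq2 without their roles. How reads were counted, the annotation and the use of strand are not given in the sources used here, so overlapping genes and near-identical copies are uncertain.

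Libraries were grouped by their titles. Counts were normalized with TMM and tested with edgeR 4.0.16 in R 4.3.3 (filterByExpr by group, quasi-likelihood test, two-sided, Benjamini-Hochberg adjustment across all 17419 genes tested). The standard error is the log2 fold change divided by the root of F. Exon lengths and positions were taken from GENCODE on GRCh38 and promoters from RefSeq. Alternatives were DESeq2 size factors in edgeR, upper-quartile normalization, no filter, at least 10 counts in every library, DESeq2 1.42.0, limma-voom (limma 3.58.1), a replicate block, and each library left out. The steps were tested on simulated data first.

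The members, lists and tests were chosen with earlier results of these data known. Values per library are given for members with an adjusted p under 0.05, at least 1.5-fold change and a mean of at least 1 CPM, and for 6 receptor subunits that CCN proteins bind (ITGAV, ITGA5, ITGA6, ITGB1, ITGB3, ITGB5). From each other list, 5 called genes per direction are named, those that changed most among genes with a mean of at least 1 CPM. The values of some genes of these lists are not reported here. Chi-square values per degree of freedom between libraries of a group were 7.13 or higher, so no library was a copy of another.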

Additional observations from a re-analysis of the deposited data

How the results depend on the processing

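Over 13 alternatives, 17 of the 19 called members stayed under an adjusted p of 0.05 in each, no called member changed sign, and the number of members called was 17 to 23. DESeq2 called 22, with ITGA2, ITGAE and PARVB in addition. The number of members called at least 2-fold was 3 to 5 when 1 library was left out, the lower value without replicate 2 of shCCN3. ZYX was lost in 4 alternatives and TLN2 in 2. ITGB1 and TLN1 passed only without replicate 2 of shCCN3 (log2 fold changes 0.36 and 0.31, adjusted p = 0.00347 and 0.000812). Leaving out 1 library moved the number of adhesome genes called between 18 and 34 and of ligand genes between 20 and 22, beside 23 and 20 with all libraries. With at least 10 counts in every library, 18 ligand genes were called. Same-numbered libraries did not deviate together (correlations 0.149, -0.0726 and -0.259), so the numbers were not taken as pairs. The fit with the replicate block called 19 members, with 12 lower and 7 higher, losing ZYX (adjusted p = 0.0611) and gaining ITGA2 (adjusted p = 0.0457), and 4887 genes in all against 5825 without it. No scaling moved the median of all genes by more than 0.02 on the log2 scale. With 3 libraries per group, members not called may still differ within the intervals given, and the 9 untested genes had too few counts for a test.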
